A study of Mus musculus with 8 samples.

Results

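E2F proteins are the transcription factors that switch on genes of DNA synthesis when a cell leaves G1, and their transcripts were followed here in mouse preadipocytes, the stromal cells from which fat cells form, that had received a virus with or without Cre recombinase. Members were all probe sets whose platform annotation names exactly 1 gene, that gene being E2f1, E2f2, E2f3, E2f4, E2f5, E2f6, E2f7 or E2f8. A probe set is a group of short oligonucleotides on the array that together report a transcript. The rule gave 16 probe sets for 8 genes, out of 45101 probe sets and out of 18193 genes named in this way. E2f1 and E2f5 had 3 probe sets each, E2f2, E2f3, E2f6 and E2f8 had 2 each, and E2f4 and E2f7 had 1 each.

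All cells were subcutaneous preadipocytes isolated from day 2 newborns of the C57BL/6 background with the genotype Dicer lox/lox, in which Cre can excise a segment of Dicer, the ribonuclease that releases mature microRNAs. The 4 control samples were given Ad5CMVeGFP, an adenovirus that encodes GFP, and the 4 Dicer knockout samples were given Ad5CMVCre-eGFP, which encodes Cre and GFP, each at 750 MOI with 4 µg/mL polybrene. Total RNA was taken 4 days later and hybridised to Affymetrix arrays, 1 per sample, and the comparison addresses how transcripts respond to the Cre virus meant to remove Dicer. Cre virus in cells without floxed Dicer was not analysed here, and effects of Cre and of Dicer loss cannot be told apart. The labels call the samples biological replicates numbered 1 to 4 without naming animals or cultures, so p-values reflect only the variation among these arrays, which may be technical.

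Pocket proteins of the retinoblastoma family hold E2F factors in check in resting cells, and cyclin-dependent kinases release them in G1. E2F1, E2F2 and E2F3 are known as activators, and E2F4 and E2F5 mainly carry pocket proteins to promoters as repressors. E2F6 represses without pocket proteins as part of a Polycomb-related complex. E2F7 and E2F8 are atypical repressors that bind DNA without the DP proteins, which are the partners of E2F1 to E2F6. MicroRNAs are part of this circuit: those of the miR-17 family are known to repress E2f1, E2f2 and E2f3, those of the miR-34 family are known to repress E2f3, and the genes for several of them are themselves E2F targets.

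These are mature sequences from RefSeq (GRCm38.p6), shown because loss of Dicer would remove them and because they are among the known microRNA inputs to the activator E2fs. Capitals mark the seed, bases 2 to 8, with which a microRNA pairs to its targets, and U is written as in RNA. The first 4 share the seed AAAGUGC and the last has the seed GGCAGUG. The levels of mature microRNAs were not analysed here.
miR-17-5p (chr14:115043684-115043706, plus strand): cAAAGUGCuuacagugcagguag
miR-20a-5p (chr14:115044183-115044205, plus strand): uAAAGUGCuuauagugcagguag
miR-106b-5p (chr5:138165787-138165807, minus strand): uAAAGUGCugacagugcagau
miR-93-5p (chr5:138165574-138165596, minus strand): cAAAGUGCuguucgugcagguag
miR-34a-5p (chr4:150068473-150068494, plus strand): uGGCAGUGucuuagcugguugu

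Several E2f genes are known to be under E2F control themselves, so the start sites of the members were searched for the E2F consensus, spelled out as TTTCCCGC, TTTCGCGC, TTTGCCGC and TTTGGCGC on both strands. No RefSeq window was at hand for E2f4 and E2f5. RefSeq windows from 250 bases before to 50 bases after a start were at hand for 6 of the 8 genes, in 8 windows. Of these, 3 windows held a match, for E2f2, E2f3 and E2f7, against 744 of all 32851 windows of this length, or 2.26%. The windows of E2f1, E2f6 and E2f8 held none. A match describes letters and not binding. The stretches below run 5′ to 3′ on the strand of the gene (GRCm38.p6) with the match in capitals. That of E2f2 lies 40 to 47 bases after the start, that of E2f3 ends 4 bases before it, and that of E2f7 ends 191 bases before it.
E2f2 (chr4:136172294-136172323, plus strand): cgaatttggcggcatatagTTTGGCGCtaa
E2f3 (chr13:29986064-29986090, minus strand): atggtttgaaaagccgGCGGGAAAtct
E2f7 (chr10:110745225-110745264, plus strand): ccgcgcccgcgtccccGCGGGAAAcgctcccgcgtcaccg

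The labelled cell type was checked against its markers. All 9 stromal markers with a named probe set, among them Pdgfra, Pdgfrb, Dcn and Col1a1, were in the brighter 60% of probe sets that entered the tests, and their summed signal was 312019.0 to 373558.6 in controls and 294962.4 to 345254.8 in knockouts. Of the markers of other cells with a named probe set, those entering the tests were 1 of 4 for adipocytes, 5 of 6 for macrophages and leukocytes, 3 of 5 for endothelium, 1 of 4 for keratinocytes and epithelium, 4 of 5 for skeletal muscle and 2 of 2 for Schwann and neural cells. Ptprc (leukocytes), Pecam1 and Cdh5 (endothelium), Krt5 and Krt14 (keratinocytes) and Adipoq (adipocytes) were below that filter. Adgre1, Cd68 and Csf1r (macrophages), Kdr and Tek (endothelium), Epcam (epithelium), Myod1 (skeletal muscle) and Sox10 (Schwann cells) were above it. The part of other cells in the results was not tested. In the unpaired fit no tested marker was called, and in the paired fit Dlk1 alone was. Dlk1, a preadipocyte marker, was lower in the knockout in 4 of 4 pairs (log2 difference -0.72, SE 0.37, limma adjusted p = 0.999 unpaired and 0.0436 paired), and 1 of the 9 stromal markers was thus called in the paired fit. Dcn, a matrix proteoglycan, had -0.39 (SE 0.29), also lower in 4 of 4 pairs, and was called in neither fit. Thy1, another stromal marker, had 0.22 (SE 0.12), higher in 4 of 4 pairs and called in neither fit. Of the 9 stromal markers 4 were above and 5 below 0, with 1 higher and 3 lower in all 4 pairs. Cd68 had -0.37 (SE 0.24), lower in 4 of 4 pairs, and the 5 tested macrophage and leukocyte markers were 2 above and 3 below 0. The 4 tested skeletal muscle markers all had differences above 0, with a median of 0.54 and 0 called in either fit, and that list summed to 1913.7 to 3134.7 in controls and 2728.1 to 3805.0 in knockouts. Among them Acta1, skeletal actin, had 0.53 (SE 0.19) with 4 of 4 pairs higher, and Myog, below the filter, read 19.9 to 45.1 in controls and 50.2 to 197.2 in knockouts. Fabp4, the tested adipocyte marker, had 0.55 (SE 0.34), and Epcam, the tested epithelial one, 0.42 (SE 0.17), each with 3 of 4 pairs higher. The other members of these lists, all below the filter, went both ways. Adipoq and Cidec were higher in 3 of 4 pairs and Lep was lower in 4 of 4. Krt5 was higher in 4 of 4 pairs, and Krt14 and Cdh1 were lower in 3 of 4. The proliferation markers Mki67, Top2a and Birc5 had log2 differences of -0.06, -0.06 and 0.05 between knockout and control. The 2 Dicer1 probe sets differed by -0.26 (SE 0.27) and by -0.15 (SE 0.20) on the log2 scale, and whether they lie within the excised segment was not tested. Odd- and even-numbered arrays of both groups differed in the 18S ribosomal RNA 5′ control probe set, which read 5905.9 to 14007.2 on the odd and 30583.9 to 43029.9 on the even ones. Each group holds both kinds equally.

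No E2f probe set passed the test. Signals were compared as log2(signal + 73.1) with limma, knockout minus control, with Benjamini-Hochberg adjustment over the 27026 tested probe sets and a threshold of 0.05. Of the 14 tested E2f probe sets 0 were called, where 0.0037% of all tested probe sets were, and the smallest adjusted p was 0.999. The paired fit, which takes the replicate number as a block, also called 0 of 14, against 0.0481% of all tested probe sets, with a smallest adjusted p of 0.422. At an unadjusted p under 0.05 the unpaired fit had 2 of the 14, one each of E2f5 and E2f6, against 3.77% of all tested probe sets. The remaining 2 of the 16, an E2f1 and an E2f8 probe set, lay below the filter and are given from a fit with no filter. In bulk RNA, fewer cells with a transcript and less of it per cell cannot be told apart.

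**Figure D1:**
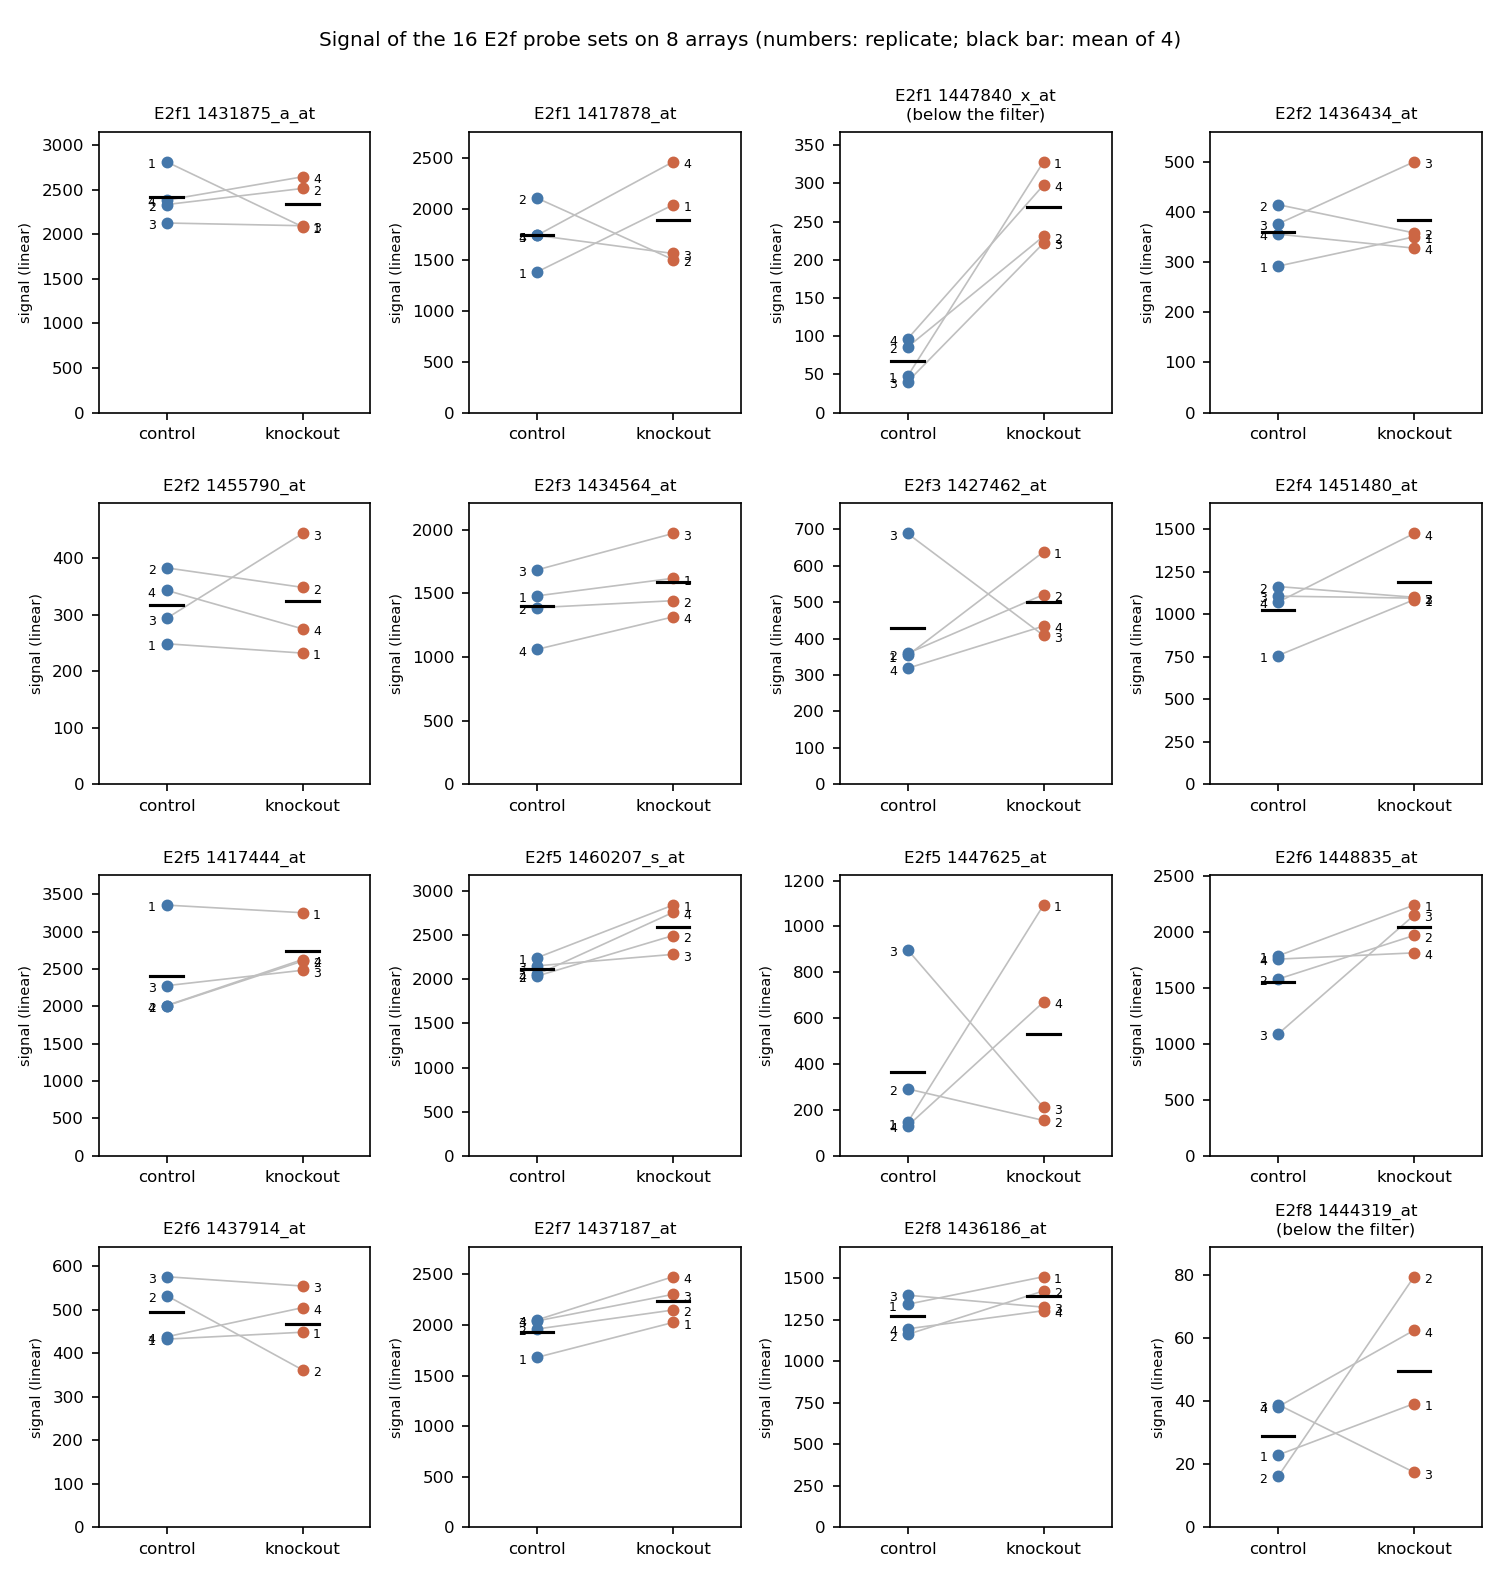
Linear array signal (vertical axes, from 0) of each of the 16 E2f probe sets on the 4 control and 4 knockout arrays, with grey lines joining same-numbered replicates and black bars for the mean of 4. The groups do not overlap for E2f1 1447840_x_at, E2f5 1460207_s_at and E2f6 1448835_at.

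Among the activators, E2f1 was read by 3 probe sets that did not move alike. The brightest, 1431875_a_at, read 2813.8, 2334.4, 2127.3 and 2383.8 in controls 1 to 4 and 2085.1, 2515.2, 2096.8 and 2645.8 in knockouts 1 to 4, which is a log2 difference of -0.05 (SE 0.14, 95% interval -0.35 to 0.25). The groups overlapped, and 2 of the 4 pairs were higher in the knockout. For 1417878_at the arrays read 1382.5, 2107.8, 1741.7 and 1742.7 in controls and 2041.4, 1503.7, 1563.8 and 2464.5 in knockouts (log2 difference 0.10, SE 0.18). Here knockouts 1 and 4 were above their partners and knockouts 2 and 3 below them, and with array weights the log2 difference was -0.037, in the opposite direction. The interval of the brighter probe set puts a change of E2f1 as it reads it between 0.787-fold and 1.19-fold.

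The third E2f1 probe set, 1447840_x_at, separated the groups. Its suffix marks a design in which some oligonucleotides can also match other transcripts, and the annotation table gives it no accession. It read 47.7, 85.8, 40.4 and 96.5 in controls and 328.3, 230.8, 221.9 and 297.9 in knockouts, so that every knockout array was above every control array. The control arrays lie about the pseudocount of 73.1, the 20th percentile of all signals, and the mean of the probe set was below the filter, which lay at a signal of 215.4. In the fit with no filter its log2 difference was 1.29 (SE 0.27, 95% interval 0.71 to 1.88, exact two-sided permutation p = 0.0286, the smallest that 4 against 4 arrays can give). Pairs 1 to 4 gave 1.73, 0.94, 1.38 and 1.13. It did not pass the adjustment over all 45037 probe sets (adjusted p = 0.9998 unpaired and 0.339 paired), a fit that called 0 probe sets in all. By unadjusted p (0.000456) it stood 16th among them. Of the 18011 probe sets below the filter, 1.31% had every knockout array above every control array. On the linear scale the control arrays averaged 67.6 ± 27.7 and the knockout arrays 269.7 ± 51.7 (SD over 4 arrays). With controls this dim the size depends on the pseudocount, at 1.79 with one of 18.3 and 0.64 with one of 292.4, and no fold is given. The other two E2f1 probe sets show no such difference, and what this probe set reads besides E2f1 was not tested.

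E2f2 did not differ beyond the spread between arrays on either probe set. Its brighter probe set, 1436434_at, read 292.4, 415.1, 376.7 and 356.2 in controls and 350.8, 358.7, 500.6 and 328.3 in knockouts (log2 difference 0.07, SE 0.22). The dimmer, 1455790_at, averaged 317 ± 58.5 in the controls and 325 ± 92.7 in the knockouts (SD over n = 4 arrays), for a log2 difference of 0.01 (SE 0.25), and with median centring its difference was -0.014 and with quantile normalization -0.0049, so it has no settled direction. In both probe sets knockout 3 was the highest of the 8 arrays. Pair 3 gave 0.35 and 0.50 on them, and pair 4 gave -0.10 and -0.26.

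E2f3 did not differ beyond the spread between arrays on either probe set, though every pair was higher in the knockout on the brighter one. On 1434564_at controls read 1481.3, 1388.2, 1685.8 and 1060.7 and knockouts 1619.5, 1443.1, 1971.9 and 1315.5 (log2 difference 0.17, SE 0.17, adjusted p = 0.999). The groups overlapped, because replicates differed more from each other than each knockout from its partner: the pairs gave 0.12, 0.05, 0.22 and 0.29, and the standard error was 0.12 in the paired fit. Single arrays set much of the size, which was 0.0503 without control 4, 0.0662 without knockout 3 and 0.261 without control 3. On 1427462_at controls read 353.5, 359.1, 688.6 and 318.3 and knockouts 638.2, 520.6, 408.4 and 434.3 (log2 difference 0.23, SE 0.25). Control 3 was the highest array there, so that pair 3 was lower in the knockout while the other 3 pairs were higher. Without control 3 the difference was 0.445, without control 4 it was 0.125 and without knockout 1 it was 0.118.

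Of the pocket protein partners, E2f4 was read by 1 probe set, 1451480_at, at 757.3, 1163.3, 1106.9 and 1072.0 in controls and 1085.5, 1100.2, 1095.2 and 1475.7 in knockouts (log2 difference 0.21, SE 0.17). Apart from the low control 1 and the high knockout 4, the arrays lay between 1072.0 and 1163.3. Pairs 1 and 4, which hold those arrays, gave 0.48 and 0.44, and pairs 2 and 3 gave -0.08 and -0.01. The difference was 0.0778 without control 1 and 0.104 without knockout 4.

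E2f5 had differences above 0 on both of its bright probe sets, which are annotated to the same accession (BC003220) and so are not independent. On 1460207_s_at controls read 2245.9, 2037.8, 2153.8 and 2056.1 and knockouts 2842.4, 2496.8, 2283.7 and 2759.4, with every knockout array above every control array. The log2 difference was 0.28 (SE 0.12, 95% interval 0.01 to 0.54, exact two-sided permutation p = 0.0286), or 1.21-fold, and all 4 pairs were higher, at 0.33, 0.28, 0.08 and 0.41. It did not pass after adjustment (limma adjusted p = 0.999, paired 0.446). Whether 1460207_s_at also reads other transcripts was not tested. On 1417444_at controls read 3357.6, 2008.4, 2278.5 and 2012.5 and knockouts 3255.5, 2607.8, 2484.7 and 2628.6 (log2 difference 0.20, SE 0.17). Both arrays numbered 1 stood highest there, and pair 1 was the single pair not higher in the knockout (-0.04). The difference was 0.369 without control 1, 0.129 without control 2, 0.13 without control 4 and 0.121 without knockout 1. The third probe set, 1447625_at, varied from 130.1 to 898.1 in controls and from 154.1 to 1092.9 in knockouts, and its pairs ran from -1.78 to 2.41, for a log2 difference of 0.46 (SE 0.57, 95% interval -0.79 to 1.70).

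**Figure D2:**
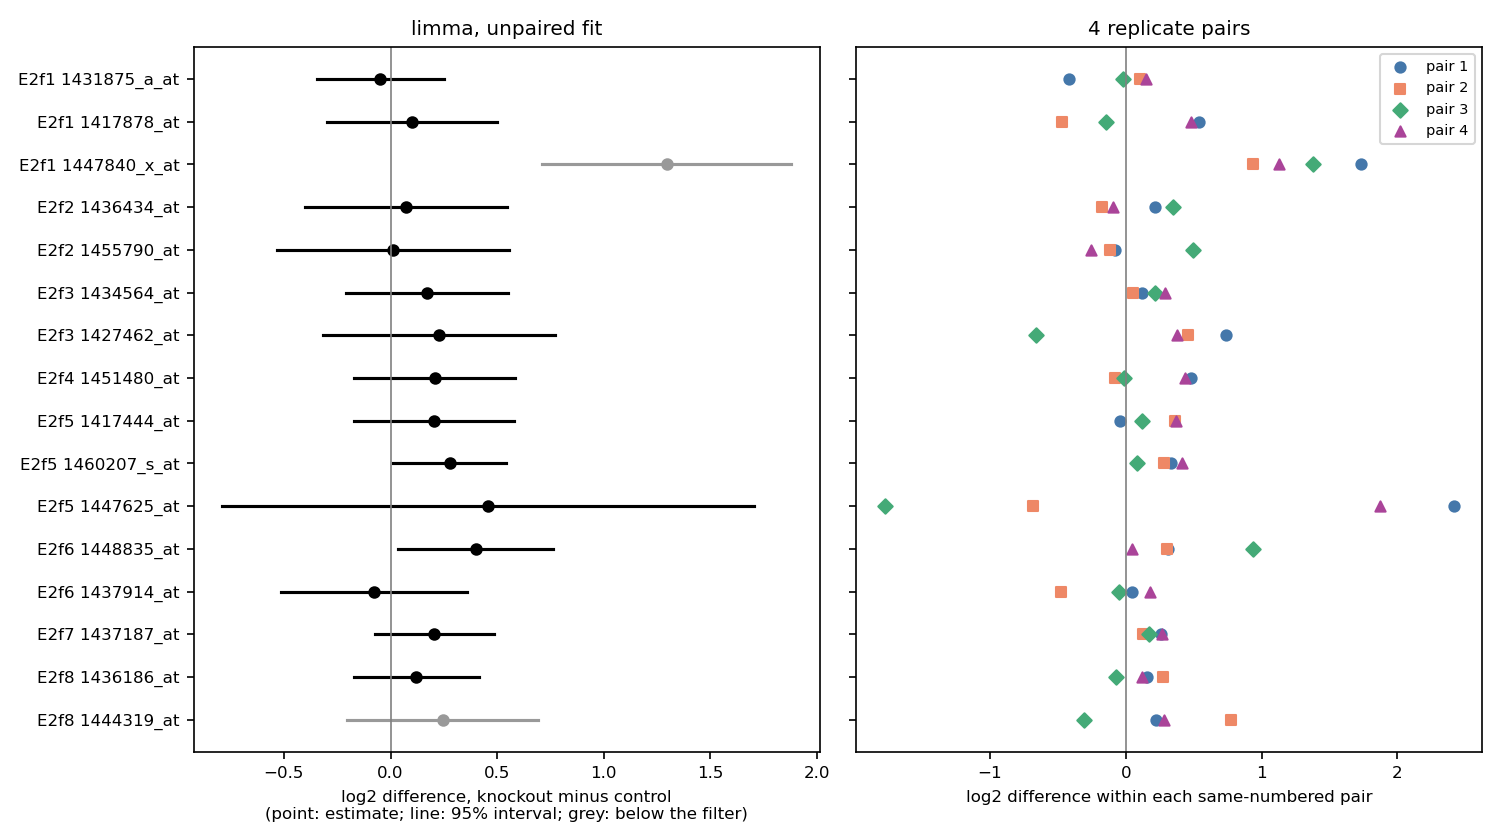
Left, log2 difference of each E2f probe set, knockout minus control, in the unpaired limma fit with its 95% interval (grey: the 2 probe sets below the filter, from the fit with no filter). Right, the difference within each of the 4 same-numbered pairs. The interval lies above 0 for E2f1 1447840_x_at, E2f5 1460207_s_at and E2f6 1448835_at before any adjustment, and E2f5 1447625_at spreads most between pairs.

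E2f6 had the largest difference among the brightest probe sets of the 8 genes, and its other probe set did not share it. On 1448835_at controls read 1785.0, 1577.7, 1087.5 and 1755.6 and knockouts 2237.9, 1966.8, 2147.5 and 1811.5, with every knockout array above every control array. That is a log2 difference of 0.40 (SE 0.17, 95% interval 0.04 to 0.76, exact two-sided permutation p = 0.0286), or 1.32-fold, which did not pass (limma adjusted p = 0.999, paired 0.422). Control 3 was the low array. The pairs gave 0.31, 0.31, 0.94 and 0.04, and without control 3 the difference was 0.25. On 1437914_at, annotated to another accession, controls read 432.5, 532.6, 575.9 and 437.9 and knockouts 448.4, 361.8, 554.5 and 504.8 (log2 difference -0.08, SE 0.20), with 2 of 4 pairs higher.

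The gap between the groups was narrow for E2f6 1448835_at and for E2f5 1460207_s_at. For E2f6 the lowest knockout array (1811.5) and the highest control array (1785.0) are close, as are 2283.7 and 2245.9 for E2f5. For E2f1 1447840_x_at the corresponding values are 221.9 and 96.5. Leaving out each array in turn kept the differences between 0.25 and 0.47 for E2f6, between 0.23 and 0.34 for E2f5 and between 1.20 and 1.39 for the E2f1 probe set.

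**Figure D3:**
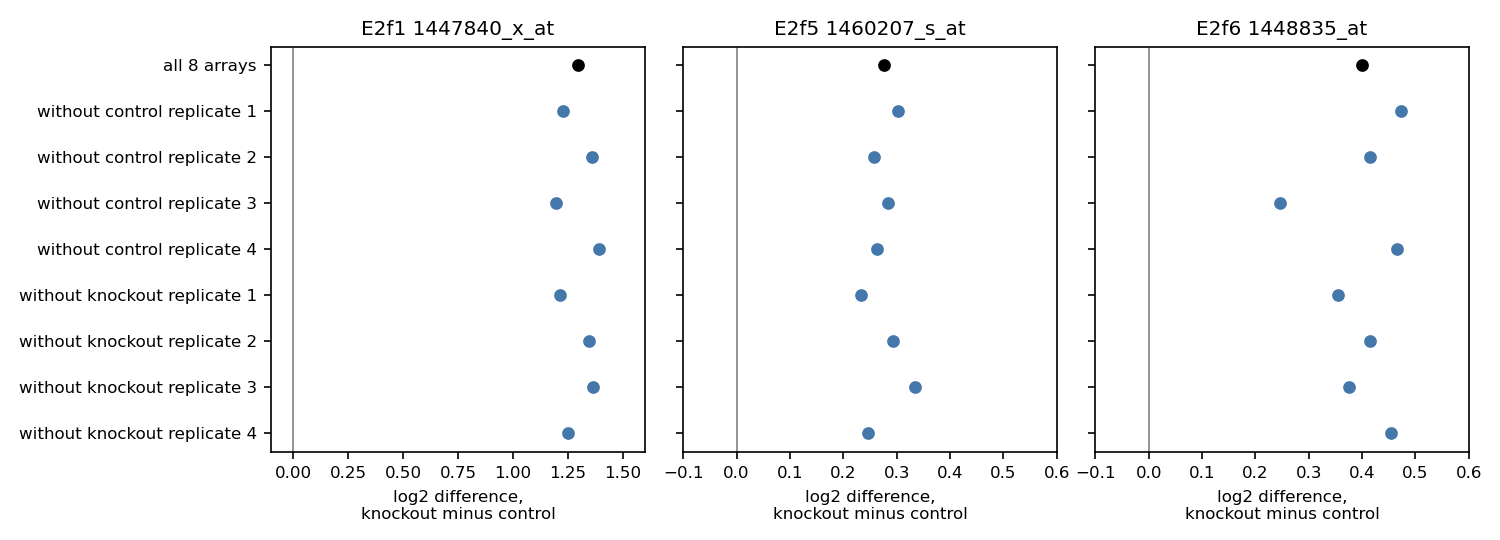
Log2 difference, knockout minus control (horizontal axes, which differ in range), of the 3 E2f probe sets whose groups do not overlap, with all 8 arrays (black) and without each array in turn (blue). E2f6 1448835_at moves most, to 0.25 without control 3.

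The atypical E2fs had small differences above 0. E2f7 (1437187_at) read 1679.5, 1959.2, 2039.1 and 2049.1 in controls and 2023.7, 2146.4, 2301.3 and 2475.4 in knockouts, a log2 difference of 0.20 (SE 0.13, 95% interval -0.07 to 0.48). A single knockout array, number 1, lay within the range of the controls. The pairs were the most even of the family, at 0.26, 0.13, 0.17 and 0.26 (SD 0.068), yet the paired fit did not call it (limma adjusted p = 0.605). E2f8 (1436186_at) read 1342.0, 1160.7, 1396.7 and 1194.4 in controls and 1507.7, 1422.4, 1324.6 and 1303.2 in knockouts (log2 difference 0.12, SE 0.13), with 3 of 4 pairs higher. Its second probe set, 1444319_at, was below the filter, at 16.2 to 39.0 in controls and 17.5 to 79.6 in knockouts, near or under the pseudocount.

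Over the whole family, 14 of the 16 probe sets had a log2 difference above 0, with a median of 0.20, where 50.9% of all 45037 probe sets had one above 0 and the median was 0.00456. The count for the 14 tested ones was 12 as deposited, 11 with median centring, 11 with quantile normalization and 10 with array weights. Their median was 0.188 as deposited, 0.115 without control 4 and 0.209 without control 3. In the paired fit without pair 1 it was 0.092. Knockouts were higher in all 4 pairs for 5 of the 16 (E2f1 1447840_x_at, E2f3 1434564_at, E2f5 1460207_s_at, E2f6 1448835_at and E2f7), against 7.74% of all probe sets, and lower in all 4 pairs for 0. Every knockout array was above every control array for 3 of the 16, against 1.36%. Probe sets of the same gene are not independent, and by its brightest probe set 7 of the 8 genes were above 0, against 49.6% of the 13259 tested genes. On these probe sets knockouts were higher in all 4 pairs for 3 of the 8 genes, against 8.64% of tested genes. Every knockout array was above every control array for 1 of the 8, against 172 of the 13259. Signals of different probe sets cannot be set against each other, so the members are not ordered by level.

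The partners of the E2Fs were compared next. Tfdp1 and Tfdp2 encode the DP proteins with which E2F1 to E2F6 bind DNA. Tfdp1 differed by 0.12 (SE 0.13) and Tfdp2 by -0.06 (SE 0.18) on the log2 scale. Rb1, the retinoblastoma protein that binds the activators, averaged 2367 ± 158 in the controls and 3217 ± 276 in the knockouts (SD over n = 4 arrays), for a log2 difference of 0.43 (SE 0.12). Its highest control array read 2501.9 and its lowest knockout array 2821.4, and all 4 pairs were higher, but it did not pass after adjustment (limma adjusted p = 0.999, paired 0.153). The pocket proteins p107 and p130, encoded by Rbl1 and Rbl2, differed by -0.08 (SE 0.11) and by -0.07 (SE 0.12).

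The DREAM complex joins E2F4, p130 and the MuvB core on cell cycle genes in resting cells. Of the MuvB core with its later partners Mybl2 and Foxm1, 7 of 7 genes were tested, with 3 above and 4 below 0. The values with the smallest p were those of the MuvB subunits Lin52 (log2 difference -0.33, SE 0.25), Rbbp4 (-0.13, SE 0.12), Lin54 (-0.16, SE 0.16) and Lin37 (0.07, SE 0.13). Of the E2F6 repressor complex 11 of 12 genes were tested, 4 above and 7 below 0, with a median log2 difference of -0.11. Pcgf6, its Polycomb ring finger subunit (-0.28, SE 0.19), and Max, the partner of Mga (-0.21, SE 0.19), were lower in 4 of 4 pairs, while Cbx3, a heterochromatin protein, and L3mbtl2 had 0.24 (SE 0.15) and -0.15 (SE 0.19). Pairs were lower throughout for 3 of the 11 and higher throughout for 0, against 9.44% and 8.64% of all tested genes.

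Germline genes that E2F6 is known to keep silent in somatic cells were below the filter in their mean over all arrays. Of the 5 with a named probe set, 0 entered the tests. Stag3, a meiotic cohesin subunit, read 43.9 to 321.8 in controls and 110.0 to 498.3 in knockouts. Tuba3b, a testis tubulin, read 55.6 to 181.7 and 161.0 to 299.8. Both were higher in 3 of 4 pairs. Their knockout means (279.7 for Stag3 and 227.6 for Tuba3b) were above the filter signal of 215.4, and their control means (208.8 and 130.2) below it. Slc25a31 was also higher in 3 of 4 pairs, while Smc1b and Mael were lower in 3 of 4. The list summed to 267.7 to 558.6 in controls and 423.8 to 836.4 in knockouts. The highest array of Smc1b read 60.4, that of Slc25a31 97.4 and that of Mael 39.9.

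**Figure D4:**
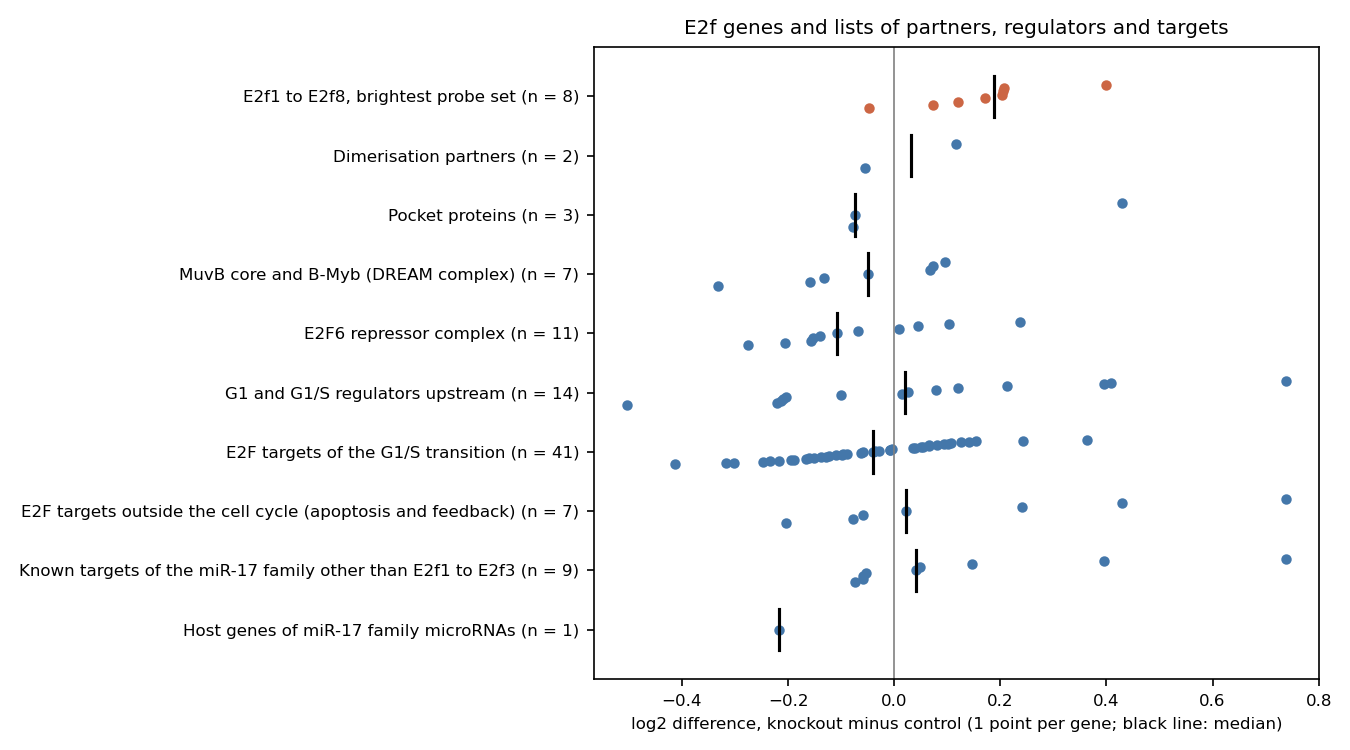
Log2 difference, knockout minus control, of the 8 E2f genes by their brightest probe set (top) and of each tested gene in the lists of partners, regulators and targets (1 point per gene, black line for the median). The median of the E2f genes is 0.19 and that of the G1/S targets is -0.04.

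Upstream of the E2Fs, the D-type cyclins, which drive the kinases that inactivate pocket proteins, had differences above 0. Ccnd2 averaged 14902 ± 1939 in the controls and 19892 ± 3331 in the knockouts (SD over n = 4 arrays), for a log2 difference of 0.41 (SE 0.14). It was higher in 3 of 4 pairs. Ccnd3 differed by 0.21 (SE 0.11) and Ccnd1 by 0.74 (SE 0.40), each with 4 of 4 pairs higher, and Cdk2, the kinase of cyclin E, had -0.22 (SE 0.10) with 0 of 4 pairs higher. None of these 4 passed (limma adjusted p = 0.999 for each), and in the paired fit the smallest adjusted p of the 14 regulators was that of Ccnd1, 0.0885. At an unadjusted p under 0.05 that fit had 4 of the 14 higher and 5 lower, against 10.3% of all tested genes in either direction. Pairs were higher throughout for 3 of the 14 and lower throughout for 6, against 8.64% and 9.44% of all tested genes. The lowest difference of the list was that of the kinase inhibitor Cdkn1c (-0.50, SE 0.33, lower in 4 of 4 pairs).

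The E2F targets of the G1/S transition were more often below than above 0. Of 45 genes 41 were tested, 15 were above 0 and 26 below, and the median log2 difference was -0.04, against -0.002 over all tested genes. In both fits 0 passed, as 0% of all tested genes did in the unpaired and 0.0754% in the paired fit. At an unadjusted p under 0.05 the unpaired fit had 1 of 41, against 3.93% of all tested genes. The paired fit had 2 of the 41 higher and 7 lower, against 10.3% of all tested genes in either direction. Those with the smallest p were Brca1, a DNA repair gene (controls 2436 ± 340, knockouts 1830 ± 406, SD over n = 4 arrays, log2 difference -0.41, SE 0.17), Uhrf1, which maintains DNA methylation (-0.30, SE 0.15), Tk1, thymidine kinase (-0.23, SE 0.12), and Ccna2, cyclin A (0.24, SE 0.13). Brca1, Uhrf1 and Tk1 were lower in 4 of 4 pairs and Ccna2 was higher in 4 of 4. Pairs were lower throughout for 8 of the 41 and higher throughout for 4, against 9.44% and 8.64% of all tested genes.

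Of the E2F targets outside the cell cycle 7 of 9 were tested, 4 above and 3 below 0. Besides Rb1 and Ccnd1, those with the smallest p were Cdkn2a, the inhibitor locus that E2F1 induces (-0.20, SE 0.12, lower in 4 of 4 pairs), and Apaf1, the core of the apoptosome (0.24, SE 0.16, higher in 4 of 4 pairs). Of the known miR-17 family targets other than the E2fs, 9 of 10 were tested, 5 above and 4 below 0, with a median of 0.04. Ccnd1 led them, followed by Hif1a, the hypoxia factor (0.15, SE 0.10), Cdkn1a, the kinase inhibitor p21 (0.39, SE 0.36), and Rbl2. Mcm7, a helicase subunit whose introns hold miR-106b and miR-93 and which is itself an E2F target, averaged 26992 ± 2356 in the controls and 23364 ± 3694 in the knockouts (SD over n = 4 arrays), for a log2 difference of -0.22 (SE 0.12), with 1 of 4 pairs higher.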

How the data were processed

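The authors deposited 1 linear array intensity (signal) per probe set and sample, made with GCOS 1.3 and MAS5 per the submitters' processing notes. Their 2% trimmed mean was 1500.01 on each array, as computed from the values, so each array had been scaled. Other steps are not given in the sources used here. Values were taken as log2(signal + 73.1), the 20th percentile of all values, which understates fold changes of dim probe sets. After removal of 64 array controls, 27026 probe sets (the upper 60% in mean log2 value) entered the tests with R 4.3.3 and limma 3.58.1 (lmFit, eBayes with trend, two-sided, Benjamini-Hochberg). The scripts were tested on simulated data. The number of arrays limits the precision.

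Groups and replicate numbers come from the labels. Deviations from group means correlated at 0.341, 0.189, 0.199 and 0.372 between same-numbered arrays, all above 0.1, so the numbers were taken as pairs. Between control and knockout arrays of unlike number the values ran from -0.347 to 0.149, so some of these also passed 0.1. The unpaired fit is reported, and a paired fit (replicate block) stands beside it. For listed genes, the brightest among the tested probe sets with 1 symbol stood for the gene. Text names all members, and of each list the up to 4 genes with the smallest unadjusted p. Members, lists and alternatives were chosen with earlier results of these data known. Alternatives were other pseudocounts, filters, scalings and weights, no trend, blocks and leaving out arrays or pairs. Python 3.11.15 with matplotlib 3.10.9 drew the figures.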

Additional observations from a re-analysis of the deposited data

Results flagged for a closer look

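Of 32 sets of 4 arrays checked (16 probe sets in 2 groups), 2 held an array far from the other 3, and chance alone gives about 1 in 20. For E2f3 1427462_at control 3 read 688.6 and the next highest control 359.1. For E2f4 1451480_at knockout 4 read 1475.7 and the next highest knockout 1100.2. Without that array the E2f4 difference was 0.104, and without control 3 the E2f3 difference was 0.445. The E2f1 probe set 1447840_x_at, outside the tested probe sets, had every knockout array above every control array (log2 difference 1.29).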

How the results depend on the processing

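The 16 member differences were recomputed under other settings, 343 values in all, of which 0 passed the threshold and 24 changed sign. In 10 of the 16 probe sets no value changed sign. The count of called probe sets, 1 in the unpaired fit, was 0 without the filter, 0 after centring on medians, 0 without the mean-variance trend and 13 with the replicate block, and it was 0 to 2 with single arrays left out and 0 to 80 in the paired fit with single pairs left out. E2f probe sets called stayed at 0 in each setting run. Genes called in the partner and target lists were 0 throughout except for 3 in the paired fit without pair 1 (Ccnd1, Ccnd2 and Cdkn1c, so 0 to 3 with single pairs left out). In that fit Ccnd1 (0.855) and Ccnd2 (0.555) were higher in the knockout and Cdkn1c (-0.621) lower. Array weights turned E2f1 1417878_at to -0.037 and E2f2 1455790_at to -0.022, and median centring and quantile normalization turned the latter to -0.014 and -0.0049. Leaving out single arrays gave -0.108 to 0.0266 for E2f1 1431875_a_at, -0.0306 to 0.198 for E2f1 1417878_at, -0.0408 to 0.133 for E2f2 1436434_at, -0.123 to 0.13 for E2f2 1455790_at and -0.152 to 0.0241 for E2f6 1437914_at. Leaving out single pairs in the fit with the replicate block gave -0.112 to 0.0768, -0.0446 to 0.291, -0.0201 to 0.156, -0.149 to 0.102 and -0.161 to 0.0579 for these probe sets in the same order, and -0.196 to 1.2 for E2f5 1447625_at. Without pair 4 this fit gave -0.026 for E2f1 1417878_at and -0.015 for E2f5 1447625_at. For E2f1 1447840_x_at the pseudocount moved the size most, to 1.79 with a pseudocount of 18.3 and 0.64 with one of 292.4. The cause of these changes was not tested. With all 4 pairs in, the replicate block changed no call of a member or of a gene in the partner and target lists, and of the listed cell markers it called Dlk1 (adjusted p = 0.0436).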

Other observations

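The genes whose pattern over the 8 arrays was most like that of each member, by Pearson r of log2 values centred within the odd- and within the even-numbered arrays, are given as a description. With 13259 genes and 8 arrays, high values of r are found for any pattern. For E2f1 they were Nr3c1, the glucocorticoid receptor (r = 0.972), and Zhx1 (0.965), and for E2f2 Cntn2 (0.981) and Akt1, the growth kinase (0.969). For E2f3 they were Sec23b, a vesicle coat protein (0.987), and Il33 (0.984), for E2f4 Hr (0.989) and Chrnb2 (0.973), and for E2f5 Rheb, the activator of mTOR (0.971), and Ccl9 (0.97). E2f6 was closest to Hibadh (0.983) and Tyrobp (0.982), E2f7 to Rtn4r (0.992) and Mgmt, a DNA repair enzyme (0.987), and E2f8 to A930018O16Rik (0.979) and Gfod1 (0.962). Without the centring, r fell to -0.19 for E2f3 with Sec23b and to 0.15 for E2f5 with Rheb, whereas it was 0.969 for E2f1 with Nr3c1 and 0.941 for E2f7 with Rtn4r.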
